A study of Drosophila melanogaster with 999 samples.

Results

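Abd-B is the most posterior Hox gene of Drosophila, and this account describes the motoneurons in which its transcript was detected. Members were selected on read counts: a cell was called an Abd-B cell when it had 10 or more raw reads of Abd-B and fewer than 10 reads of each of twit and Vmat, genes that mark 2 specialised motoneuron subtypes. The rule was met by 97 cells with 50 or more Abd-B reads and 24 cells with 10 to 49, together 12.1% of all sequenced motoneurons and 16.5% (13.9 to 19.4) of those with low twit and Vmat. They were compared with the other Hox cells (30.4% of all cells), which had the same low twit and Vmat counts, fewer than 10 Abd-B reads and at least 10 reads of lab, Dfd, Scr, Antp, Ubx or abd-A. All cells came from 1 pool of 19 to 20 h embryos in which OK371-GAL4 drove RFP (labelled Ok371>RFP+ DAPI- DRAQ5+), a driver that is active in glutamatergic neurons and so marks motoneurons. Each cell was sorted into a well of its own on 16 plates and sequenced with SMART-Seq2, a protocol that covers whole transcripts and has no molecular identifiers. No label ties a cell to an embryo, so all cells count as 1 sample and no test was run across them. Each share of cells carries its exact 95% Clopper-Pearson interval, and an interval of a difference combines the limits of both shares. They cover counting error only.

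Hox genes encode homeodomain transcription factors that give segments their identity along the anterior to posterior axis, and each is expressed in its own stretch of the ventral nerve cord. Abd-B acts in the most posterior abdominal segments, where abd-A and Ubx can also be present. Hox proteins bind DNA together with the cofactors Exd and Hth, and Hth is needed to bring Exd into the nucleus. In the abdomen, Hox factors are known to shape which motoneurons survive and which muscles they reach.

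Sequencing depth was similar in both sets of cells. Total counts ranged from 100027 to 2739459 with a median of 368359 in Abd-B cells, against a median of 344490 in other Hox cells. The median number of genes with at least 1 read was 1370 in Abd-B cells and 1468 in other Hox cells. The markers of the sorted population were present: VGlut, the vesicular glutamate transporter, had 10 or more reads in 95.9% of Abd-B cells and 94.7% of other Hox cells, and the synaptic gene Syt1 in 100% and 99%. The pan-neuronal gene elav was at 78.5% in Abd-B cells and 79.9% in other Hox cells. Of the markers of other cells, 3 of 10 for glia, 2 of 11 for muscle, 2 of 11 for hemocytes and fat body and 3 of 8 for progenitors were analysed. Among them moody, Ppn and stg had 10 reads in 0 Abd-B cells, and Gs2, bt, mira and nerfin-1 in at most 2 of them. The exceptions were nrv2 (62.8% of Abd-B cells, 57.2% of other Hox cells) and Mef2 (26.4% and 24.7%) and crq (4.96% and 2.63%). The plates held 0 to 13 Abd-B cells each, which was 0% to 25.7% of the low-twit, low-Vmat cells of a plate. Comparisons within a plate used the 14 plates with at least 4 cells of each kind.

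The Abd-B level that chose the cells varied widely between them. The Abd-B cells had 10 to 1771 Abd-B reads with a median of 180. Scaled to the total reads of the cell (CPM), the lowest was 14.9, the median 533.04 and the highest 5828. In the other Hox cells the highest count was 7 reads, and all but 17 of these cells had 0. Of the members, 9 had 10 to 19 reads. Those just inside it had 10, 11, 12 and 13 reads, while the cells just outside it had 8, 7, 7 and 6 reads. The gap at the limit is thus small, while the bulk of the cells lay far above it. Primers for 7 Hox genes were added to reverse transcription and preamplification, which raised the counts of these genes, so their levels are compared only between cells and not with other genes.

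Abd-B lies on chromosome 3R (16927212 to 16972236, minus strand, BDGP6.54) and is transcribed from several promoters, whose transcripts encode a long and several shorter proteins. The estimated counts per transcript, which the rule did not use, fell almost wholly on FBtr0083384, the transcript that encodes the longest protein. It held 96.4% of the summed Abd-B reads of the Abd-B cells, with a range of 86.1% to 100% over the 15 plates with such cells. At least 10 reads of it were assigned in 120 cells, which is all but 1, and at least 10 reads of the 6 shorter-protein transcripts together in 17. Among these shorter-protein transcripts, FBtr0083385 took 1.57% of the reads and the others under 1% each. A single cell had 10 reads of the shorter-protein transcripts alone. The transcripts share exons, reads in shared exons are divided by the authors' program, and the targeted primers cover only a part of the gene, so these percentages describe the assignment of the reads.

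Most Abd-B cells held other Hox genes as well. With at least 10 reads, abd-A was detected in 83.5% of the cells (interval 75.6 to 89.6), Ubx in 67 (55.4%, 46.1 to 64.4) and Antp in 63 (52.1%, 42.8 to 61.2). The anterior genes were rare. Scr and lab were each at 3.31% (0.908 to 8.25), and Dfd was found in 0 cells, which allows a share of up to 2.48% by a limit of 3 counts and up to 3% by the exact interval. The Hox gene pb, for which no primer was added, had 10 reads in 8 cells (6.61%). The most frequent combination was Abd-B with Antp, Ubx and abd-A (45 cells), followed by abd-A alone beside Abd-B (26 cells), Ubx with abd-A (13) and Antp with abd-A (10). Abd-B was the only targeted Hox gene in 12 cells (9.92%), while 46 cells had 3 other Hox genes and 4 cells had 4. The share with abd-A depended on depth: with every cell thinned to 50000 reads it was 69.4%.

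**Figure D1:**
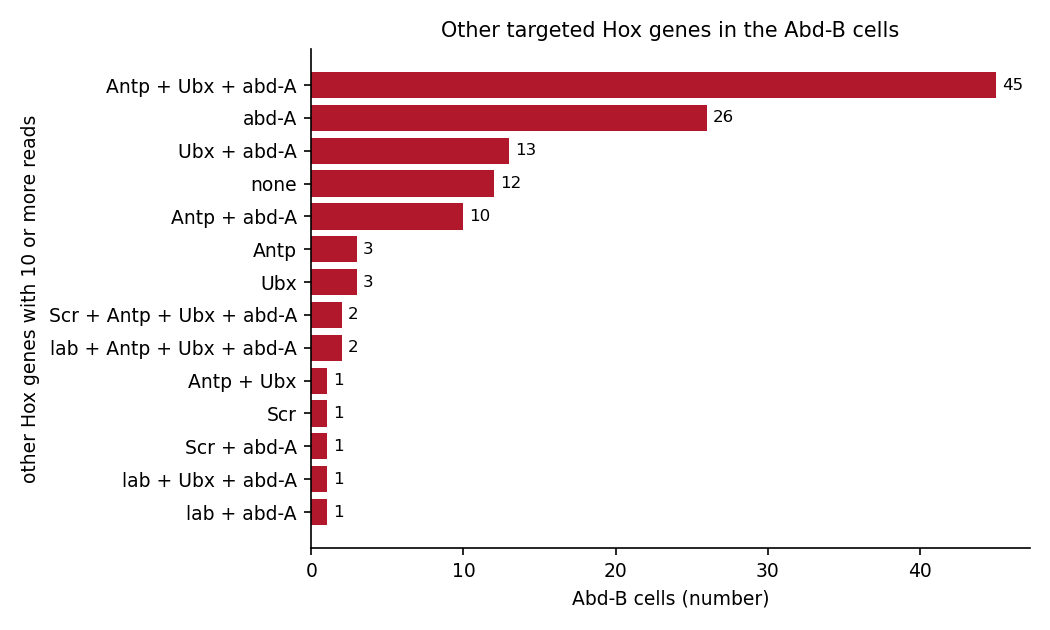
Number of Abd-B cells (x axis) with each combination of the other targeted Hox genes at 10 or more reads (y axis). The 45 cells with Antp, Ubx and abd-A and the 26 cells with abd-A alone make up most of the Abd-B cells.

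In the 100 cells with abd-A but fewer than 10 Abd-B reads, the nearest cells along the axis, Ubx was at 90% (82.4 to 95.1) and Antp at 70% (60 to 78.8). Ubx was thus in 55.4% of the Abd-B cells against 90% of these cells, with intervals that do not overlap. Also the Abd-B cells that had abd-A held Ubx less often (62.4%, 52.2 to 71.8) than the abd-A cells without Abd-B. The level of abd-A in the cells that had it was alike, with a median of 499.5 CPM in Abd-B cells and 516.03 CPM in abd-A cells without Abd-B.

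Across the other 5773 genes that could be used, few separated the Abd-B cells from other Hox cells. A gene was called past the size rule when its mean CPM differed at least 2-fold and its share of cells with 10 or more reads by at least 10 percentage points in the same direction. This held for 10 genes in the upward direction (0.173% of the genes) and for 8 in the downward direction (0.139%). The difference in share also had the same sign in at least 75% of the plates for 7 of the genes with higher and 5 of those with lower values. The median difference in share over all these genes was -0.33 percentage points. No replicate of the pool exists, so these counts describe 1 sample. The leading genes were 3 of Wnt signalling, otk2, otk and Wnt4, which were higher in Abd-B cells, and the Hox cofactor gene hth, which was lower.

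**Figure D2:**
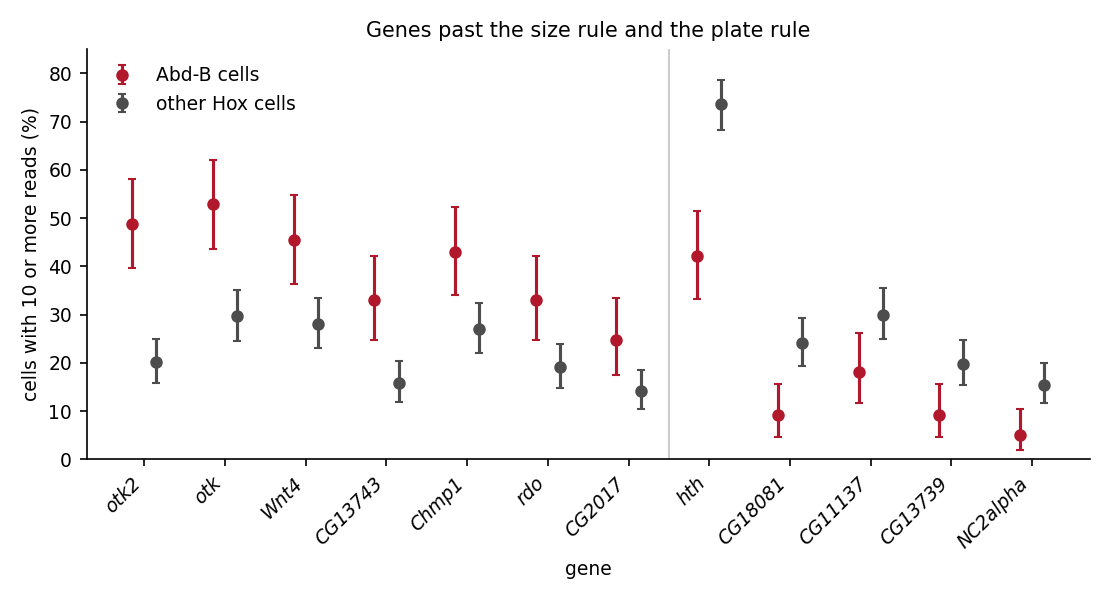
Share of cells with 10 or more reads (y axis, %) of the 12 genes past the size rule with the same direction in at least 75% of the plates, in Abd-B cells (red, left) and other Hox cells (grey, right), with exact 95% intervals. The first 7 genes are higher in Abd-B cells and the last 5 lower, with hth (42.1% against 73.7%) the widest apart.

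The gene otk2 (2R, 12023146 to 12025272) encodes a receptor-like transmembrane protein of the PTK7 family, which takes part in Wnt signalling. It had 10 or more reads in 59 Abd-B cells (48.8%, 39.6 to 58) and in 61 other Hox cells (20.1%, 15.7 to 25), a difference of 28.7 points (18.3 to 38.9). Among Abd-B cells its level ran between 0 and 1850 CPM with a median of 30.9, and among other Hox cells between 0 and 1455 with a median of 0. The mean was 216.9 CPM in Abd-B cells and 67.4 in other Hox cells, a 3.22-fold difference. The ranges overlap fully. In the cells that had the transcript, the median was 340.1 CPM among Abd-B cells and 242.7 CPM among other Hox cells.

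Its neighbour and paralog otk (2R, 12001473 to 12019846), which encodes the longer protein of the pair, showed the same direction. It was detected in 64 Abd-B cells (52.9%, 43.6 to 62) and 90 other Hox cells (29.6%, 24.5 to 35.1), which is 23.3 points (12.5 to 33.7). The mean was 207.9 CPM in Abd-B cells and 86.8 CPM in other Hox cells (2.397-fold), and the highest cell had 1476 CPM among the Abd-B cells and 1448 CPM among the others. Whether reads of the paralogs were exchanged in the assignment was not tested.

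Wnt4 (2L, 7255419 to 7277171) encodes a secreted Wnt ligand. It was found in 55 Abd-B cells (45.5%, 36.4 to 54.8) and 85 other Hox cells (28%, 23 to 33.4), which is 17.5 points (6.93 to 28). For this gene the level in the cells that had it also differed: the median of these cells was 1615 CPM among Abd-B cells and 389.1 CPM among other Hox cells. The mean over all cells was 799.6 CPM in Abd-B cells and 197.4 CPM in other Hox cells (4.05-fold). The highest value was 8121 CPM in Abd-B cells and 3552 in other Hox cells.

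A list of Wnt ligands and receptors was drawn up after these 3 genes had been seen, and so adds no support to them. Of its 14 usable members, 3 were past the size rule upward, namely these genes, and 0 downward. Of the Frizzled receptor genes, fz2 was at 75.2% in Abd-B cells and 89.1% in other Hox cells (-13.9 points, -23.2 to -5.50) and fz at 25.6% and 36.5% (-10.9 points, -20.3 to -0.61), both with mean CPM less than 2-fold apart. For fz2 the difference was -4.83 points at a minimum of 1 read. The other Wnt ligand gene with enough reads, Wnt5, was at 14% in Abd-B cells and 13.8% in other Hox cells. The kinase-like receptor gene drl was at 38.8% and 35.2%.

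The gene with the widest difference in share at 10 reads was hth (3R, 10507561 to 10639568), whose product is the homeodomain cofactor that keeps Exd nuclear. It had 10 or more reads in 51 Abd-B cells (42.1%, 33.2 to 51.5) and in other Hox cells far more often (73.7%, 68.4 to 78.5), a difference of -31.5 points (-41.7 to -20.8). The median was 8.46 CPM in Abd-B cells and 434.7 CPM in other Hox cells, and the highest cell had 3742 and 7752 CPM. The mean of 235.9 CPM in Abd-B cells and 910 CPM in other Hox cells is a 3.86-fold lower value in Abd-B cells. In the cells that had the transcript, the median was 239.5 CPM in Abd-B cells and 832.9 CPM in other Hox cells, so both the number of cells and the level within them were lower. At a minimum of 1 read the difference in share was -20.9 points for hth, less than the 28.4 points of otk2 and the 23.8 points of otk.

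hth makes transcripts for a long protein with the homeodomain (2 transcripts) and for a short form without it (3 transcripts). Both kinds were less frequent in Abd-B cells. Transcripts of the long protein had 10 estimated reads in 8 Abd-B cells (6.61%, 2.90 to 12.6) and 90 other Hox cells (29.6%, 24.5 to 35.1). Those of the short protein had them in 42.1% (33.2 to 51.5) of Abd-B cells and 72.7% (67.3 to 77.6) of other Hox cells. The long class took 4.75% of the hth reads in Abd-B cells and 16.8% in other Hox cells, again as assigned by the authors' program.

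Of the 6 Hox cofactor genes on the list, only hth was past the size rule (1 of 6 downward, 0 upward). Its partner exd was at 28.9% in Abd-B cells and 39.1% in other Hox cells, but the interval of the difference includes 0 (-20 to 0.29). At a minimum of 1 read exd was at 37.2% in Abd-B cells and 54.3% in other Hox cells, a difference of -17.1 points. The trunk gene tsh, which encodes a zinc finger factor, was at 71.1% in Abd-B cells and 55.3% in other Hox cells (15.8 points, 5.22 to 25.6) with mean CPM 1.16-fold apart. This direction turned when only other Hox cells with abd-A or Ubx were compared (-5.94 points). The related gene tio was at 10.7% and 8.22%.

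Of the other genes past both rules, Chmp1, a subunit of the ESCRT-III membrane remodelling machinery, was at 43% in Abd-B cells and 27% in other Hox cells (2.35-fold in mean CPM). The leucine-rich repeat gene rdo was at 33.1% and 19.1% (2.94-fold), CG13743 at 33.1% and 15.8% (2.26-fold) and CG2017 at 24.8% and 14.1% (2.13-fold). On the lower side, CG18081 was at 9.09% in Abd-B cells and 24% in other Hox cells. CG11137, annotated as EMC4 of the endoplasmic reticulum membrane complex, was at 18.2% and 29.9%. NC2alpha, a subunit of a general repressor of transcription, was at 4.96% and 15.5%, and CG13739 at 9.09% and 19.7%. For CG13739 the abd-A cells (14%) and Ubx cells (9.46%) were near the Abd-B cells. The lab, Dfd or Scr cells were far above them (37.6%). Against abd-A or Ubx cells only, CG13739, CG2017, CG18081 and NC2alpha were not past the size rule, while CG13743, Chmp1, rdo and CG11137 were. CG2017 was at 20% and CG18081 at 16% in abd-A cells, where the intervals of the difference include 0, while against Ubx cells they do not. CG11137 was near the Abd-B cells in Ubx cells (20.3%) but not in abd-A cells (35%). Chmp1 was near them in Antp cells (46.7%) but not in abd-A cells (21%). The annotated spans of CG11137 and CG13739 overlap those of other genes of the table, CG33170 for the first and CG13954 and Or45a for the second. Whether their exons overlap, or reads of such genes were exchanged in the assignment, was not tested. The remaining genes past the size rule, which missed the rule on plates, were san, which encodes an acetyltransferase needed for sister chromatid cohesion (20.7% in Abd-B cells, 9.87% in other Hox cells), stmA (28.1% and 17.8%) and mRpL43 of the mitochondrial ribosome (15.7% and 5.59%) with higher values. With lower values they were the F-box gene Ppa (11.6% and 23.4%), the receptor tyrosine kinase gene Ddr (13.2% and 25%) and CG31814. The annotated span of mRpL43 overlaps that of sigmar. CG31814 is DIP-kappa, a cell surface protein of the immunoglobulin superfamily, and was at 13.2% in Abd-B cells and 24% in other Hox cells. Against abd-A or Ubx cells only, CG31814 and Ddr were not past the size rule, while san, stmA, mRpL43 and Ppa were.

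The 12 genes past both rules differed in how many other settings kept them past the size rule. Of 27 other settings, which include leaving out each plate, otk2, Wnt4 and hth were past the size rule in all 27, otk and rdo in 26 and Chmp1 in 25. The 1.5-fold setting and that with no minimum number of cells cannot take a gene out. Those that leave out a plate share most of their cells, so these counts describe overlapping settings. Those with the fewest among the 12 were CG13739 (19) and CG2017 and NC2alpha (20 each). Of the genes that missed the rule on plates, Ppa was past the size rule in 23 and san in 19. CG31814 and stmA were past it in 17 each, mRpL43 in 16 and Ddr in 12. The exception for otk was the comparison with abd-A or Ubx cells only, where it was at 34.5% in the other cells and 1.83-fold apart in mean CPM.

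**Figure D3:**
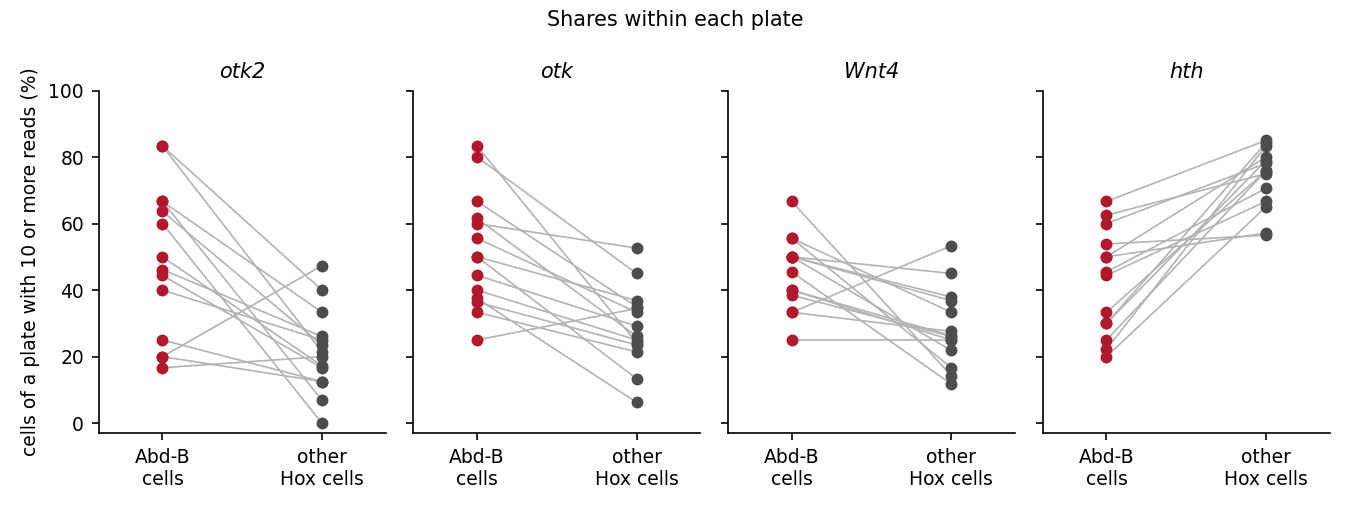
Share of the cells of a plate with 10 or more reads (y axis, %) of otk2, otk, Wnt4 and hth in Abd-B cells (red, left) and other Hox cells (grey, right), with lines joining the values of each of the 14 plates. For hth all 14 lines run upward to the other Hox cells, and for otk 13 of 14 run downward.

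Within single plates the directions mostly held. The share of cells with hth was lower in Abd-B cells in 14 of 14 plates, with a median over plates of 44.9% (20% to 66.7%) in Abd-B cells and 75.9% (56.5% to 85%) in other Hox cells. The share with otk2 was higher in 12 of 14 plates, with medians of 48.1% (16.7% to 83.3%) in Abd-B cells and 20.7% (0% to 47.4%) in other Hox cells. For otk it was higher in 13 plates and lower in 1, and for Wnt4 higher in 12, lower in 1 and equal in 1. A plate held 4 to 13 Abd-B cells here, so single plates are coarse.

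When the other Hox cells were divided by their most posterior Hox gene, the 4 leading genes differed by group. The share with otk2 was 48.8% in Abd-B cells, 27% (18.6 to 36.8) in abd-A cells, 31.1% (20.8 to 42.9) in Ubx cells, 4.44% (0.54 to 15.1) in Antp cells and 10.6% (4.96 to 19.2) in cells with lab, Dfd or Scr only. The 100 abd-A and 74 Ubx cells did not differ beyond their intervals, nor did the 45 Antp and 85 lab, Dfd or Scr cells. For hth the shares were 42.1% in Abd-B cells, 65% (54.8 to 74.3) in abd-A cells, 63.5% (51.5 to 74.4) in Ubx cells, 86.7% (73.2 to 94.9) in Antp cells and 85.9% (76.6 to 92.5) in lab, Dfd or Scr cells. Against the abd-A cells alone, Abd-B cells had otk2 more often by 21.8 points (8.32 to 34.3), otk by 16.9 points (3.09 to 30) and hth less often (-22.9 points, -35.7 to -9.05). For Wnt4 the interval of that difference includes 0 (11.5 points, -2.16 to 24.5), while its mean CPM was 2.39-fold higher in Abd-B cells. In the cells without 10 reads of any targeted Hox gene, otk2 was at 10.7%, otk at 11%, Wnt4 at 19.2% and hth at 57.1%.

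**Figure D4:**
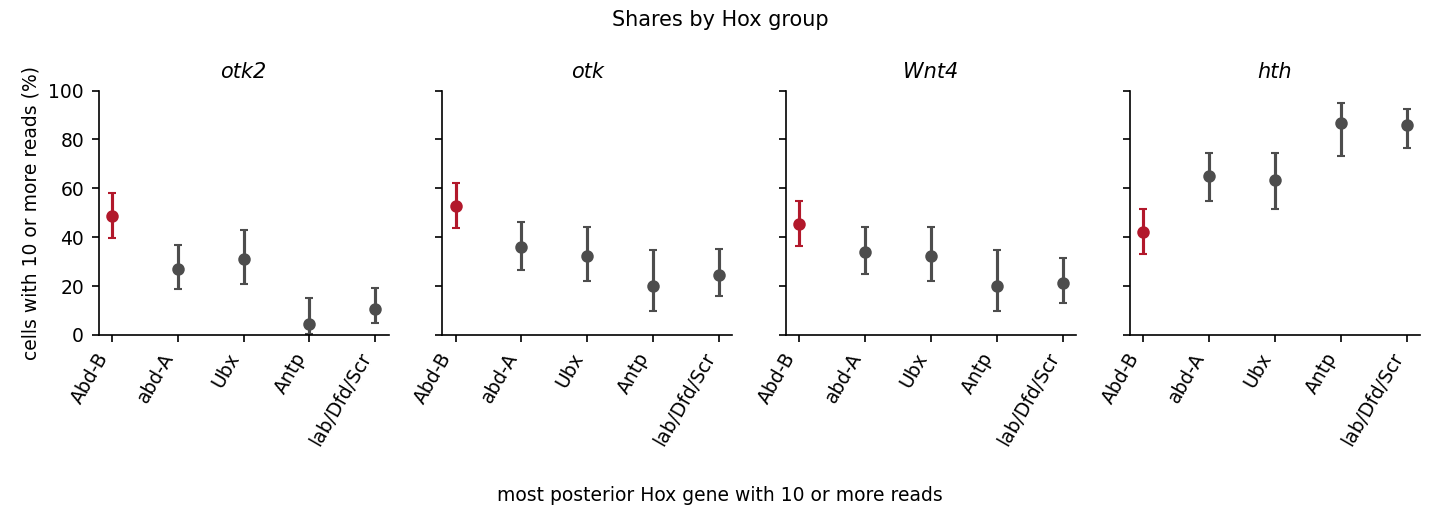
Share of cells with 10 or more reads (y axis, %) of otk2, otk, Wnt4 and hth by the most posterior Hox gene of the cell (x axis), Abd-B cells in red and the other groups in grey, with exact 95% intervals. The Abd-B cells have the highest point for otk2 (48.8%), otk (52.9%) and Wnt4 (45.5%) and the lowest for hth (42.1%).

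The genes whose level ran most closely with that of Abd-B over the Hox cells of both groups were otk2 (Spearman 0.34), otk (0.25), Wnt4 (0.22), CG13743 (0.19) and CG10494 (0.18). The lowest values were those of hth (-0.34), fz2 (-0.23) and cact, the Drosophila inhibitor of NF-kappaB factors (-0.17). These correlations are across cells of 1 pool, which share libraries' depth, and mainly restate the difference between the groups. Within the Abd-B cells alone, otk2 was at 0.44, Wnt4 at 0.22, otk at 0.19, rdo at 0.23 and hth at -0.16.

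The Abd-B cells were divided into terciles by Abd-B CPM, a division made after seeing the data. In the highest tercile (921.7 to 5828 CPM, 40 cells), otk2 was detected in 72.5% (56.1 to 85.4), against 37.5% (22.7 to 54.2) in the middle tercile and 36.6% (22.1 to 53.1) in the lowest tercile (14.9 to 326.1 CPM, 41 cells). Wnt4 was in 22% (10.6 to 37.6) of the lowest tercile, 65% (48.3 to 79.4) of the middle and 50% (33.8 to 66.2) of the highest. The share with Ubx was 70.7% (54.5 to 83.9) in the lowest, 45% (29.3 to 61.5) in the middle and 50% (33.8 to 66.2) in the highest tercile. Those of abd-A were 73.2%, 85% and 92.5%, and those of hth 51.2%, 35% and 40%, in the same order, with intervals that overlap. The terciles had median totals of 470052, 248644 and 351846 reads and medians of 1344, 1334.5 and 1454.5 genes, and elav was at 80.5%, 77.5% and 77.5%.

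**Figure D5:**
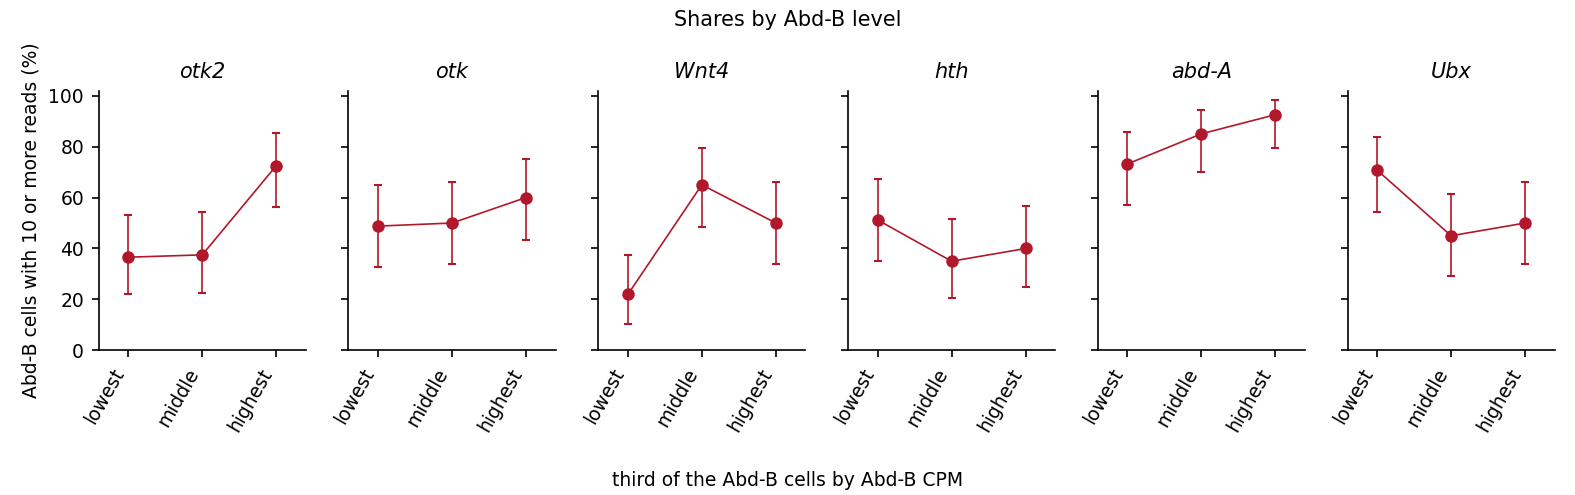
Share of Abd-B cells with 10 or more reads (y axis, %) of otk2, otk, Wnt4, hth, abd-A and Ubx in the terciles of the cells with the lowest, middle and highest Abd-B CPM (x axis), with exact 95% intervals. The share with otk2 is highest in the tercile with the most Abd-B (72.5%), and that with Ubx in the tercile with the least (70.7%).

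Within the Abd-B cells the leading genes were combined in different ways, in pairs that were chosen after their values had been seen. Both otk2 and otk were present in 41 cells, and otk was in 69.5% of the cells with otk2 and 37.1% of those without it (log2 odds ratio 1.91). In the other Hox cells this value was 1.93. Wnt4 was in 55.9% of the Abd-B cells with otk2 and 35.5% of those without (1.19), whereas otk and Wnt4 were found together about as often as independent detection gives (-0.02). For hth and Ubx the values had opposite signs. In Abd-B cells, hth was in 52.2% (39.7 to 64.6) of the cells with Ubx and 29.6% (18 to 43.6) of those without (1.35), with intervals that overlap. Among other Hox cells it was in 62.8% of the cells with Ubx and 86.4% of those without (-1.89). The latter were mostly the Antp cells and the lab, Dfd or Scr cells, with hth at 86.7% and 85.9%. The value of -1.89 thus largely restates the differences between Hox groups and is not comparable with that of the Abd-B cells.

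The lists of dorsal and ventral motoneuron factors are named for where motoneuron axons project. They also hold broader genes, such as unc-5 and zfh1 on the dorsal list. Of 4 usable dorsal and 7 usable ventral factors, 0 were past the size rule in either direction. With 0.173% and 0.139% of all genes past it, a count of 0 in this or any of the short lists that follow says nothing about the list. Of the ventral factors, 6 of 7 had a higher share in Abd-B cells (median 1.72 points). Over all genes, 2664 had a higher and 3100 a lower share. The interval of the difference excludes 0 for Lim3 alone. At least 1 of the ventral factors was detected in 75.2% of Abd-B cells and 66.4% of other Hox cells. Their summed level had a median of 418.1 CPM in Abd-B cells and 196.003 CPM in other Hox cells. The GATA factor gene grn was at 48.8% in Abd-B cells and 46.7% in other Hox cells, the homeobox gene Dr at 23.1% and 24%, and the POU gene vvl at 42.1% and 42.1%. The LIM homeobox gene Lim3, which acts in ventrally projecting motoneurons, was at 17.4% (11.1 to 25.3) in Abd-B cells and 9.54% (6.48 to 13.4) in other Hox cells, with a difference of 7.82 points (0.44 to 16.3) and mean CPM 1.98-fold apart. The Islet gene tup was in 8 Abd-B cells (6.61%) and 9 other Hox cells (2.96%). All 8 of these Abd-B cells also had Lim3, against 2 of the 9 other Hox cells with tup. No Abd-B cell and no other Hox cell had both tup and Dr, and with so few tup cells a count of 0 says little. Both grn and Dr were in 21 Abd-B cells (log2 odds ratio 2.05) and in 61 other Hox cells (3.18).

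Other transcription factor lists are given by their counts and widest members. Among 31 usable homeodomain factors 1 was past the size rule downward (hth) and 0 upward, with a median difference in share of -0.79 points. Among 11 temporal and birth-order factors 0 were past it, yet 10 of the 11 had a lower share in Abd-B cells, with a median of -3.91 points. Over all genes 3100 had a lower and 2664 a higher share. The POU factor gene nub was at 3.31% in Abd-B cells and 9.87% in other Hox cells (-6.56 points, -11.2 to -0.72), and its relative pdm2 at 1.65% and 5.59% (-3.94 points, -7.46 to 0.84). Of 27 Polycomb and trithorax group genes, which hold Hox expression states, 0 were past the size rule, and the widest apart was osa at 52.1% and 61.2%. Of 5 usable genes of posterior neurons and cell death, 0 were past it. The death gene rpr was at 3.31% in Abd-B cells and 2.63% in other Hox cells, and the caspase inhibitor gene Diap1 at 57.9% and 54.9%.

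Among the cell surface families, the list of axon guidance receptors and cues had 2 of 57 usable members past the size rule upward, otk2 and otk, and 0 downward, with a median of 0.27 points. Of 21 dpr genes, which encode immunoglobulin proteins of synaptic partner choice, 0 were past the rule. The widest apart was dpr9, at 49.6% in Abd-B cells and 67.1% in other Hox cells (-17.5 points, -28.1 to -6.72), though the ratio of its mean CPM was 0.861. Of 10 DIP genes, which encode binding partners of the dpr proteins, CG31814 (DIP-kappa) alone was past it. CG31814 was past it in only 17 of the 27 other settings and lower in 9 of 14 plates. Of 22 beat and side genes 0 were. The widest apart was CG12484, at 28.9% in Abd-B cells and 40.5% in other Hox cells (-11.5 points, -21.3 to -1), and beat-IIb was at 20.7% and 31.6% (-10.9 points, -19.7 to -1.12).

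Genes of transmission and excitability were also counted. For ion channels (21 usable), transmitter receptors (21), calcium sensors (7), synaptic and neuronal genes (13), BMP signalling (12), transmitter genes (6) and neuropeptides and their processing (11), 0 members were past the size rule in either direction. Medians of the difference in share ran from -2.40 points for BMP signalling to 3.74 points for the calcium sensors. In the BMP list, which also holds genes that are not components of the pathway, 10 of 12 members had a lower share in Abd-B cells. Over all genes, 3100 had a lower and 2664 a higher share. The widest apart in the BMP list was nrm, which encodes an immunoglobulin cell adhesion protein and is not a component of the pathway. It was at 25.6% in Abd-B cells and 38.5% in other Hox cells (-12.9 points, -22.3 to -2.55). Snap25, a SNARE protein gene, was at 65.3% in Abd-B cells and 53.3% in other Hox cells (12 points, 1.18 to 22.2), but at a minimum of 1 read the difference was -0.31 points. The GABA receptor subunit gene Lcch3 was at 48.8% and 37.5% (11.3 points, 0.44 to 22). The neuropeptide gene sNPF was at 10.7% in Abd-B cells and 4.61% in other Hox cells, and Nplp1 at 8.26% and 16.1%.

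The 20 Abd-B cells without abd-A were set against those with it. They had fewer Ubx (20% against 62.4%) and Antp (20% against 58.4%) cells, and otk2 was in 20% (5.73 to 43.7) of them against 54.5% (44.2 to 64.4), while hth was at 40% and 42.6%. Of 3607 genes with enough reads, 51 were past the size rule upward (1.41%), while 25.4% were past it downward, in the cells without abd-A. These cells also held less: the median was 248644 reads and 1070.5 genes without abd-A, and 413851 reads and 1427 genes with it, and the median Abd-B level 239.6 CPM without abd-A and 601.6 CPM with it. With every cell thinned to 50000 reads, 1.19% of the genes were past the rule upward and 15.97% downward. Among cells with 1000 or more genes, a filter added after seeing the data, 3.51% were past it upward and 23.3% downward.

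Of the genes that were lower in the cells without abd-A, the 6 furthest apart in share were these. The vesicle fusion gene alphaSnap was at 20% without abd-A and 74.3% with it, ATPsynbeta of the mitochondrial ATP synthase at 35% and 87.1%, Rab2 at 15% and 64.4%, CG14321 at 5% and 52.5%, the clathrin light chain gene Clc at 10% and 57.4% and the complex I gene ND-MWFE at 5% and 51.5%. Among the genes with higher values were RapGAP1 (40% without abd-A, 14.9% with it), Su(var)2-HP2 (30% and 6.93%), the adenylyl cyclase gene Ac78C and CG3744 (30% and 7.92% each). For Nhe2 (70% and 47.5%) and Hsc70Cb (55% and 33.7%) the intervals of the difference include 0.

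Cells outside the rule gave a second look at the same genes. Among the cells with 10 or more twit or Vmat reads (26.6% of all), 57 had at least 10 reads of Abd-B, and these were set against those with another Hox gene and fewer than 10 Abd-B reads (14.2% of all cells). There, otk2 was at 45.6% with Abd-B and 25.4% with another Hox gene (20.3 points, 4.79 to 35.6), and hth at 56.1% and 82.4% (-26.3 points, -41.2 to -11.3). For otk (12.5 points, -2.4 to 28) and Wnt4 (14.2 points, -2.02 to 29.6) the difference had the same sign and an interval that includes 0. Of the 12 genes named above, Chmp1 (-2.22 points), CG2017 (-7.07) and CG11137 (2.71) had the opposite sign there. Of all genes past the size rule in the low-twit, low-Vmat cells, 6 of the 10 higher and 6 of the 8 lower ones kept their direction. How many of all genes had the same sign in both sets of cells was not counted, so nothing is concluded from these counts. In these cells 41 genes were past the size rule upward (0.956%) and 57 downward (1.33%). Of the 10 and 8 genes found in the low-twit, low-Vmat cells, 0 and 1 were among them, the 1 being hth. There otk2 was 1.79-fold apart in mean CPM.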

How the data were processed

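Single motoneurons of 1 pooled population were sorted onto 16 plates and sequenced by the authors with SMART-Seq2 (75-bp single-end reads, targeted primers for 7 Hox genes, no molecular identifiers). The submitters' processing notes name kallisto 0.43.0, R 3.5.1 and BDGP6. After trimming poly-A tails the authors pseudo-aligned reads to Drosophila cDNA and kept cells and genes by their read numbers. The deposited gene table holds whole-number counts for 7279 genes and 999 cells. The deposited files per cell give estimated counts per transcript from kallisto. Summed over Abd-B transcripts they lie within 0.351 reads of the gene count, and the TPM beside them was not used. No column was without a sample and 0 pairs of libraries were identical.

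Of the 999 cells, 733 had both twit and Vmat below 10 reads. Among them 121 were Abd-B cells, 304 other Hox cells (100 abd-A, 74 Ubx, 45 Antp and 85 lab, Dfd or Scr cells by the most posterior gene) and 308 had no targeted Hox gene at 10 reads. The remaining 266 had twit or Vmat, 57 of them with Abd-B and 142 with another Hox gene. Members and gene lists were chosen with earlier results of these data known. Total counts were 100027 to 5834773 per cell. Counts were scaled to each cell's total (CPM). The genes used had 10 or more reads in at least 10 cells of both groups together, and the size rule asked for 2-fold in mean CPM and 10 percentage points of share. Named genes were those past this rule with the same direction in 75% of the plates holding at least 4 cells of each group, the other genes past it, the members of each list furthest apart, the genes correlated most with Abd-B, and the 6 furthest apart each way without against with abd-A. The genes vvl, pdm2, tup beside Dr, fz, Wnt5 and drl were chosen after their values were seen. Wnt genes, pairs of genes within cells, terciles and a filter on 1000 genes were chosen after seeing the data. Other settings were 1 read, cells thinned to 50000 reads, other totals, plate strata, 1.5-fold, other cell limits and leaving out each plate. No doublet caller was run on these sorted single cells. The script was tested on simulated data. Python 3.11.15, pandas 2.3.3, numpy 2.4.6, scipy 1.17.1 and matplotlib 3.10.9 were used. Gene positions and overlaps came from an Ensembl annotation of BDGP6.54, matched for 7225 genes. Several glia, muscle, hemocyte and progenitor markers and the bithorax noncoding RNAs were not analysed here.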

Additional observations from a re-analysis of the deposited data

Results flagged for a closer look

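Abd-B reads also occurred in cells that the comparisons of Abd-B cells with other Hox cells leave out. Of the cells with 10 or more reads of twit or Vmat, 21.4% (16.7 to 26.9) had 10 or more reads of Abd-B, against 16.5% (13.9 to 19.4) of the cells with low twit and Vmat. By marker it was 51 twit cells (26%, 20 to 32.8) and 8 Vmat cells (10.1%, 4.47 to 19). The difference between these shares was not tested.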

How the results depend on the processing

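Against 10 genes higher in Abd-B cells, 20 were past the rule at 1.5-fold, 27 with 50 or more Abd-B reads, 23 when compared only with abd-A or Ubx cells, 5 with Abd-B cells set at 1 or more reads and 4 without the twit and Vmat filter. Against 8 lower genes there were 16 with shares at 1 or more reads, 27 at 1.5-fold, 2 after thinning and 3 without the twit and Vmat filter. Leaving out each plate gave 9 to 16 higher genes (16 without plate 15) and 8 to 16 lower genes (16 without plate 14). These were not always the same genes: without plate 1, only 6 of the 11 higher genes were among the 10. For Abd-B cells without abd-A, against 1.41% of genes higher, 2.19% were past it with totals free of Hox and ribosomal RNA genes and likewise at 1.5-fold, 1.61% with no minimum number of cells, 3.63% within plate strata and 3.51% among cells with 1000 or more genes, a filter added after seeing the data. Against 25.4% lower, it was 15.97% (thinned) and 12.6% (no minimum number of cells). Without each plate the percentages were 1.11% to 1.77% higher and 25.4% to 37.3% lower. The share with abd-A was 69.4% after thinning and 82.1% to 85.2% without each plate, and the share of reads on the longest-protein transcript 96.1% to 97%. The share difference of Snap25 turned to -0.31 points at 1 or more reads and that of tsh to -5.94 points against abd-A or Ubx cells. Of the other values of named genes, 2261 stayed within their intervals and 11 did not. Most of these settings leave out 1 plate and keep most cells, and that with other totals leaves the shares unchanged. The count thus says little about how firm the values are. Apart from the 12.6% without a minimum number of cells, the causes of the shifts listed here were not tested.

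Totals free of the Hox and ribosomal RNA genes moved the median log2 fold of all genes by -0.05. The labels give no replicate numbers that pair cells between the groups. The plate is the unit they share. Within plate strata 15 genes were higher and 9 lower in Abd-B cells, but only 9 and 5 of these were among the 10 and 8 found without strata. After thinning it was 6 of 11 higher and 2 of 2 lower genes. All cells are 1 pool, so embryo to embryo variation is unknown, and detection at 10 reads depends on the depth of a cell.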
